A study of Sus scrofa with 20 samples.

Results

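Ileal mucosa of piglets that were weaned at 21 days and killed at 28 days of age (21W28D, 3 arrays) was compared with that of piglets that were still suckling at 28 days (S28D, 4 arrays). These 7 arrays were chosen by the deposited label of each array and are part of a series of 20 Affymetrix GeneChip Porcine Genome Arrays. Each carried the RNA of 1 crossbred (Landrace, Large White and Duroc) piglet, bred at the technical centre of a feed company in Japan. The 21W28D piglets had been separated from the sow and fed a commercial weaning diet, and the S28D piglets had sow's milk only, with no access to the sow's diet. Beside them stand the arrays labelled S35D (suckling, 35 days, 3 arrays) and the 21W35D arrays (weaned at 21 days, killed at 35 days, 3 arrays). The study took the piglets of this experiment from the litters of 4 sows, so that the series includes littermates. Which litter an array came from is not stated in the sources used here.

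The deposited labels of S35D and 21W28D may be exchanged, so that the arrays called 21W28D here may be those of suckling piglets of 35 days. Groups were kept as deposited. Pearson's r of each array with the mean of each group, its own array left out, was taken across 12267 probe sets with a mean over 5 log2 units. Replicates 2 and 3 of 21W28D correlated best with S28D (0.976 and 0.987), whereas replicate 1 had 0.960 with 21W35D and 0.953 with S28D. The arrays labelled S35D had 0.956, 0.977 and 0.977 with 21W35D, and 0.882, 0.958 and 0.945 with S28D. Whether the labels are exchanged was not tested, and these correlations were no reason for keeping them. The comparison is given as labelled, and the values of the arrays labelled S35D against the same S28D arrays follow at the end. Every direction below holds for the libraries as labelled.

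At weaning a piglet loses milk, with its maternal antibodies and fat, and meets solid feed and a different gut flora. The ileum of the pig holds long Peyer's patches, in which follicles rich in B cells are built through chemokines and adhesion molecules, and an epithelium that absorbs bile acids and the remaining nutrients. Type 1 interferons, sensed by nearly all cells, switch on antiviral genes such as ISG15, the MX genes and RSAD2. T cells and cytotoxic lymphocytes lie within and below the epithelium.

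The values are log2 units after gcRMA, from a floor of 2.08 to 16.41, and 41.6% of the values of the 7 arrays lay within 1 unit of the floor, where differences are compressed. Of 24123 probe sets, 124 controls were left out and 23999 were tested, of which 10069 carried 1 gene symbol. Array medians were 5.19 to 5.27 in 21W28D and 5.16 to 5.25 in S28D. EPCAM and VIL1 of the epithelium (means 14.70 and 13.86 in 21W28D, 14.63 and 13.50 in S28D) and the ileal bile acid-binding protein FABP6 (15.94 in 21W28D and 15.74 in S28D) were bright, as the labelled tissue should have them. Of 7 neuronal and glial genes only S100B (5.10 in 21W28D and 4.75 in S28D), which other cells also express, reached 4 log2 units, and smooth muscle genes such as ACTA2 were measured in both groups (12.2 in each). The 3′ minus 5′ signal of the actin control, a sign of RNA integrity, was 2.94 to 2.95 in 21W28D and 2.85 to 3.11 in S28D. That of GAPDH was 2.81 to 3.39 in 21W28D and 2.89 to 3.07 in S28D.

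As labelled, no gene passed the test between 21W28D and S28D. limma with Benjamini-Hochberg adjustment over 23999 probe sets found 0 probe sets at an adjusted p under 0.05 and at least 2-fold (0% of those tested), 0 without the fold minimum, and a lowest adjusted p of 0.104. At an unadjusted p under 0.05 there were 451 probe sets, 285 with the higher mean in 21W28D (1.19%) and 166 with the lower mean (0.692%). With 2-fold as well, limma left 38 higher and 36 lower, and the methods' t-test left 22 higher and 14 lower, of which 0 passed after adjustment. All 3 arrays of 21W28D lay above all 4 of S28D for 198 probe sets (0.825%) and below them for 145 (0.604%). The 95% confidence interval of the difference lay within 1 log2 unit of 0, that is within 2-fold, for 19966 probe sets (83.2%), and for 9164 of the 12267 brighter ones (74.7%). For the remaining ones the interval reached 2-fold or beyond.

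Most genes with the largest differences among those whose groups did not overlap had unrelated functions. A minority belonged to interferon response, T cells and cytotoxic cells. SNRPA1, a protein of the splicing machinery, averaged 5.001 ± 0.47 in 21W28D and 2.85 ± 0.58 in S28D (SD, n = 3 and 4). Its arrays read 5.43, 5.08 and 4.50 in 21W28D, against 2.73, 3.30, 3.30 and 2.08 in S28D. The difference was 2.15 (95% interval 1.35 to 2.95, limma adjusted p = 0.187), and the S28D arrays were close to the floor. NUBP1, which helps to assemble iron-sulphur clusters, averaged 7.18 ± 0.17 in 21W28D and 6.28 ± 0.32 in S28D, with a difference of 0.90 (0.51 to 1.29, limma adjusted p = 0.383). C4H1orf54 averaged 7.99 ± 0.24 in 21W28D and 7.05 ± 0.29 in S28D, a difference of 0.94 (0.57 to 1.32, limma adjusted p = 0.246). In the other direction, SRP14, a part of the signal recognition particle, was the brightest. It averaged 11.74 ± 0.12 in 21W28D and 12.26 ± 0.08 in S28D, a difference of -0.52 (-0.80 to -0.25, limma adjusted p = 1). Of the remaining genes, PTER, PPP4R1L, LOC100621559, ACTR6, a chromatin remodelling protein, and NCOA1, a coactivator of nuclear receptors, had differences of 1.66, 1.54, 1.25, 0.84 and 0.79. SCD5, a fatty acid desaturase, SERPINE2, a protease inhibitor, CDC25C, a phosphatase of mitotic entry, and CD200, a ligand that restrains myeloid cells, had -1.21, -0.84, -0.81 and -0.70. The lower group was dim for SCD5 (2.84 to 3.91 in 21W28D) and PPP4R1L (2.69 to 4.42 in S28D). IVD of leucine breakdown, PDLIM5, ITGB3, GNPNAT1 and TMED5 had -0.58, -0.57, -0.51, -0.44 and -0.39. The adjusted p of these 14 genes was 1 in each case.

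**Figure D1:**
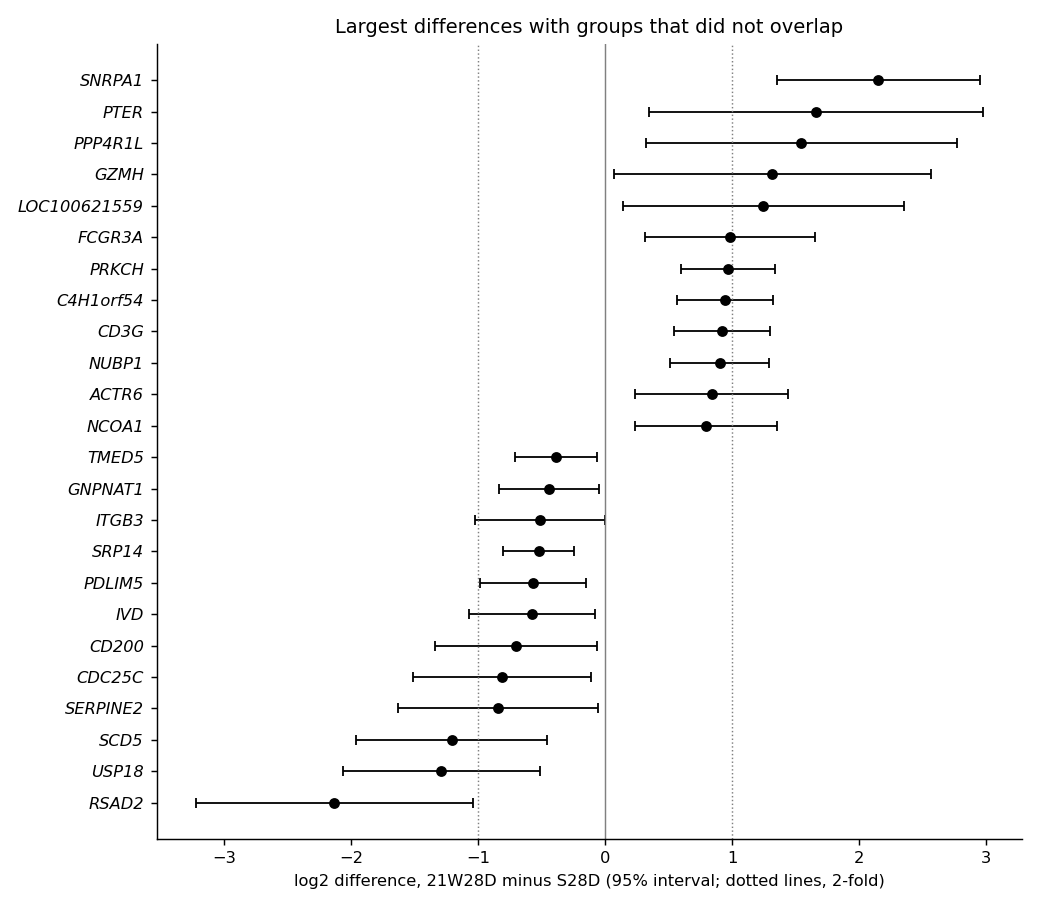
Log2 difference of 21W28D (n = 3) minus S28D (n = 4) for the 24 genes with the largest differences among those with an unadjusted limma p under 0.05 and groups that did not overlap, with 95% confidence intervals. The differences run from 2.15 for SNRPA1 to -2.13 for RSAD2, and none passed after adjustment.

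Type 1 interferon-induced genes had lower means in 21W28D. Of the 22 measured genes of this list, 20 had a negative difference and 10 had an unadjusted limma p under 0.05 in that direction, against 0 in the other, beside 0.769% of all 6765 named genes with a lower mean at that p. The list's median difference was -0.73, and that of all named genes was 0.00. None had an adjusted p under 0.05. The exceptions, PARP9 (0.17) and GBP1 (0.34), were named after their values were seen.

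ISG15, a ubiquitin-like protein, read 9.22, 11.37 and 9.65 in 21W28D, against 12.09, 10.82, 13.53 and 11.95 in S28D. Replicate 2 of 21W28D lay above replicate 2 of S28D, and the groups overlapped through this pair only. The means were 10.08 ± 1.14 in 21W28D and 12.10 ± 1.11 in S28D (SD, n = 3 and 4), and the difference was -2.02 (95% interval -3.24 to -0.80, limma adjusted p = 1). USP18, the protease that removes ISG15 from proteins and restrains the interferon receptor, read 9.64, 10.38 and 9.78 in 21W28D, against 11.06, 10.66, 12.31 and 10.87 in S28D. Its groups did not overlap. The difference was -1.29 (-2.07 to -0.52, limma adjusted p = 1).

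RSAD2, or viperin, an enzyme that stops viral replication, read 9.59, 10.49 and 9.35 in 21W28D, against 12.29, 10.997, 13.55 and 10.93 in S28D, again without overlap. The difference was -2.13 (-3.22 to -1.04, limma adjusted p = 1). The antiviral GTPases MX1 and MX2 had means of 10.14 ± 1.09 and 5.77 ± 1.18 in 21W28D, and 11.76 ± 0.80 and 8.05 ± 1.28 in S28D. Their differences were -1.61 (-2.69 to -0.54) and -2.28 (-3.70 to -0.87). IFIT2, which binds viral RNA, read 9.54, 10.43 and 10.40 in 21W28D, against 11.44, 9.34, 12.24 and 10.08 in S28D. The 2 groups of IFIT2 overlapped widely, with a difference of -0.65 (-1.91 to 0.60), which was -0.16 without replicate 3 and -1.13 without replicate 2 of S28D.

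The levels also varied among the suckling piglets. The list score, the mean of the genes after centring on all 20 arrays, was -1.11, -0.25 and -0.98 in 21W28D, against 0.28, -0.80, 0.98 and -0.12 in S28D. Replicate 3 of S28D was the highest for ISG15, USP18, RSAD2, MX1, MX2 and IFIT2. Without it the list's median was -0.48 and the differences of ISG15, RSAD2 and USP18 were -1.54, -1.60 and -0.93. Without replicate 2 of S28D, the lowest by score, the median was -1.20.

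**Figure D2:**
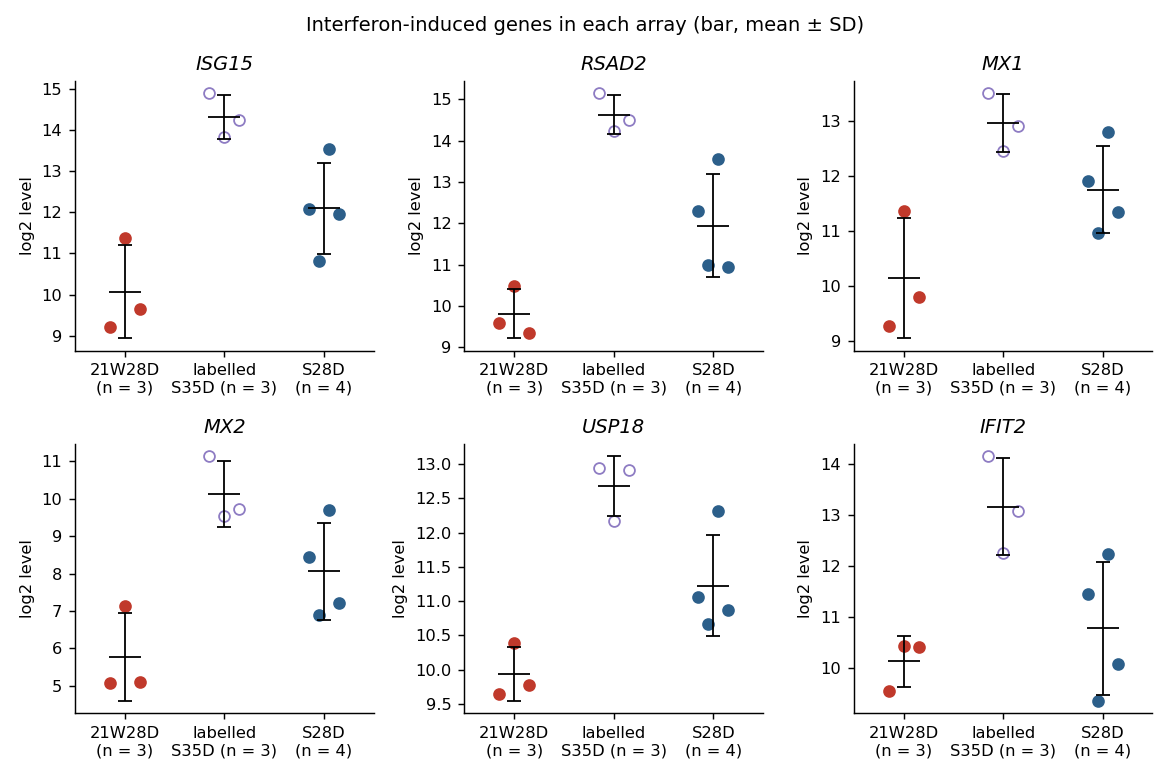
Log2 level of 6 interferon-induced genes in each array of 21W28D (n = 3), the arrays labelled S35D (n = 3, open circles) and S28D (n = 4), with the mean and SD as bars. For RSAD2 and USP18 all 21W28D arrays lie below all S28D arrays, and for each gene the mean of the arrays labelled S35D is the highest.

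T cell genes had higher means in 21W28D. Of 14 measured genes 11 had a positive and 1 a negative difference and 2 were level (here and below, a difference under 0.005). At an unadjusted limma p under 0.05 there were 3, the CD3 chains CD3D, CD3E and CD3G, all higher, beside 1.12% of all named genes with a higher mean at that p, and none was at an adjusted p under 0.05. CD4, CD27 and CTLA4 were at the floor in both groups. The median difference was 0.79 over the brightest probe set of each gene and 0.04 over all their probe sets, and 0.40 without replicate 2 of 21W28D. In whole mucosa, more cells of a type and more RNA per cell cannot be told apart.

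CD3G, a chain of the T cell receptor complex, read 8.30, 8.73 and 8.56 in 21W28D, against 7.44, 7.51, 7.63 and 7.87 in S28D. CD3G was picked among genes whose groups did not overlap. Its difference of 0.92 (95% interval 0.54 to 1.29, limma adjusted p = 0.290) exceeded the SD within the groups (0.22 in 21W28D and 0.19 in S28D). CD3E read 7.73, 7.995 and 7.45 in 21W28D, against 6.44, 6.56, 6.49 and 7.65 in S28D, where replicate 4 was within the 21W28D range. CD3D averaged 6.05 ± 0.65 in 21W28D and 5.09 ± 0.72 in S28D, a difference of 0.96 (0.06 to 1.87). SH2D1A, an adaptor of T and NK cells, had a difference of 1.10 (-0.26 to 2.46). LAT, the adaptor below the T cell receptor, had 0.98 (-0.17 to 2.13).

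Genes of cytotoxic lymphocytes had higher means in 21W28D in 5 of 7 measured members (median 0.64, and 0.36 without replicate 2 of S28D), and 2 were level. At an unadjusted limma p under 0.05 there were 2, CCL5 and GZMH, beside the 1.12% of all named genes, and none at an adjusted p under 0.05. Perforin (PRF1) and FASLG were at the floor, and 4 of the 7 reached 4 log2 units. GZMH, a protease of cytotoxic granules, read 8.17, 7.42 and 7.78 in 21W28D, against 7.12, 5.07, 6.76 and 6.96 in S28D. The groups did not overlap, with a difference of 1.31 (95% interval 0.07 to 2.56), and of 0.85 without replicate 2 of S28D. CCL5, a chemokine of activated T cells, read 10.49, 10.00 and 8.99 in 21W28D, against 8.13, 7.82, 8.24 and 9.82 in S28D, a difference of 1.33 (0.40 to 2.25, limma adjusted p = 1). GNLY and KLRK1, a granule protein and an activating receptor, had differences of 1.21 (-0.66 to 3.08) and 0.64 (-0.04 to 1.31). GNLY in S28D ran from 3.17 in replicate 2 to 6.93 in replicate 4, and its difference was 0.36 without replicate 2.

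Outside these lists, PRKCH, a protein kinase C found in T cells and epithelium, read 8.07, 7.67 and 8.18 in 21W28D, against 6.99, 6.74, 6.92 and 7.38 in S28D. Its difference was 0.97 (0.60 to 1.33, limma adjusted p = 0.187). FCGR3A, the IgG receptor of NK cells and macrophages, averaged 10.40 ± 0.29 in 21W28D and 9.42 ± 0.65 in S28D (difference 0.98, 0.32 to 1.65). Both genes were picked among those whose 21W28D arrays all lay above S28D, as 0.825% of all probe sets did. Their lack of overlap was thus fixed by the choice.

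**Figure D3:**
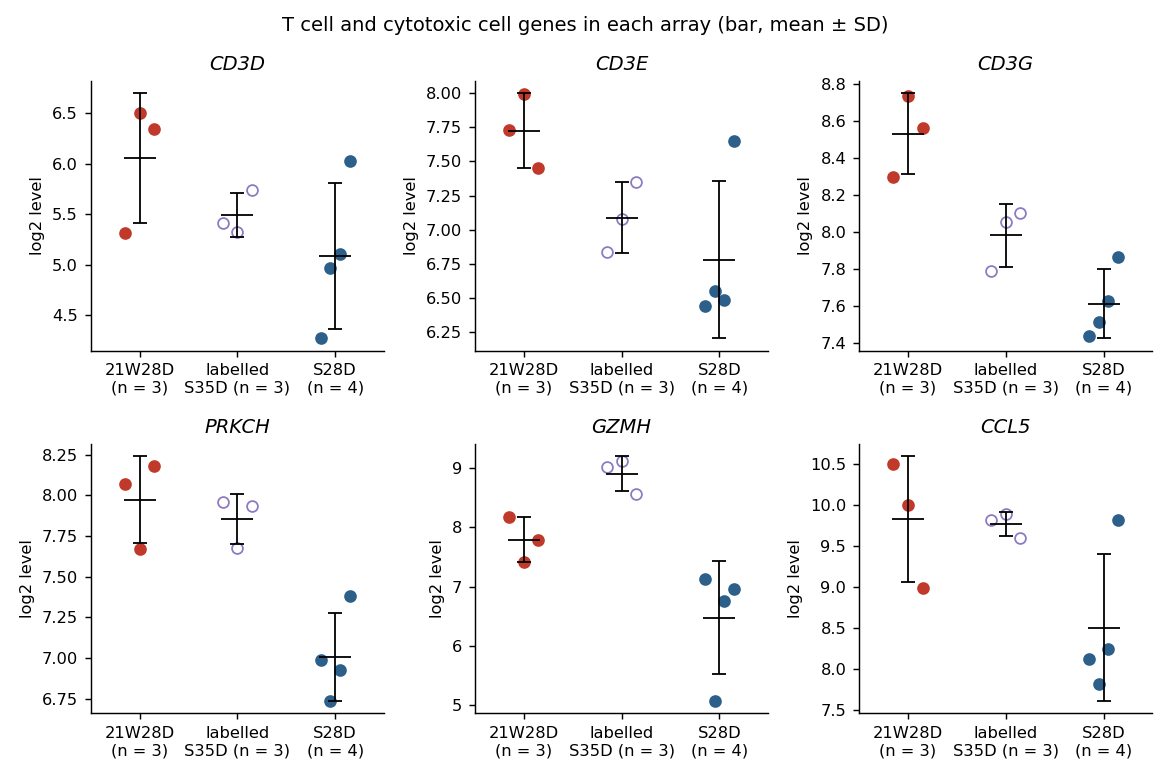
Log2 level of the CD3 chains, PRKCH, GZMH and CCL5 in each array of 21W28D (n = 3), the arrays labelled S35D (n = 3, open circles) and S28D (n = 4), with the mean and SD as bars. All 21W28D arrays lie above all S28D arrays for CD3G, PRKCH and GZMH, of which CD3G and PRKCH were picked by this trait. Replicate 4 of S28D stands above the other S28D arrays for CD3D, CD3E and CCL5.

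The follicle and homing genes of Peyer's patches did not pass the test, and their intervals were wide. CXCL13, the chemokine that draws B cells into follicles, read 12.04, 14.09 and 13.79 in 21W28D, against 13.38, 14.35, 14.30 and 13.63 in S28D. The difference was -0.61, with a 95% interval of -4.59 to 3.37 from a fit whose shared spread includes a 21W35D array at 3.28. The adhesion molecules ICAM1 and VCAM1, which hold leukocytes at the vessel wall and in follicles, had differences of -0.55 (-1.68 to 0.58) and -0.35 (-1.55 to 0.85), and without replicate 1 of 21W28D of -0.26 and 0.06. VAV1, a guanine nucleotide exchange factor of blood cells, and SLA-DOA, which modulates peptide loading of MHC class II, had -0.11 (-1.54 to 1.32) and 0.16 (-1.47 to 1.79). SLA-DOA was dim, with means of 4.06 ± 1.64 in 21W28D and 3.90 ± 1.10 in S28D. The array at 3.28 for CXCL13, replicate 2 of 21W35D, read 6.35, 10.92 and 8.23 for ICAM1, VCAM1 and VAV1. The other 21W35D arrays read at least 8.94, 13.16 and 10.82, so that this array widens the shared spread of these genes too. Of the 23 measured genes for leukocyte chemotaxis and adhesion, 8 had a positive and 12 a negative difference and 3 were level (median -0.01). At an unadjusted limma p under 0.05 there were 2, both higher, beside 1.12% of all named genes with a higher mean at that p. One was CCL5. The other was CCR9, the receptor that brings T cells to the small intestine, at 8.03, 7.71 and 6.66 in 21W28D, against 6.47, 6.62, 6.45 and 7.17 in S28D (difference 0.79, 0.04 to 1.53, and 0.51 without replicate 1 of 21W28D). ACTB, the reference gene of the study's PCR, averaged 14.21 ± 0.13 in 21W28D and 14.23 ± 0.14 in S28D.

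B cell genes had lower means in 21W28D for all 8 measured members, by -0.13 to -0.62 (median -0.36), and 0 had an unadjusted limma p under 0.05. FCGR2B, the inhibitory IgG receptor of B cells, averaged 7.29 ± 1.39 in 21W28D and 7.91 ± 0.49 in S28D, a difference of -0.62 (95% interval -3.11 to 1.88). The spread behind this interval includes replicate 2 of 21W35D at 2.29, against 8.13 and 8.18 in the other 21W35D arrays. CD180, FAM129C and CD40, the receptor for T cell help, had -0.61, -0.56 and -0.38. The size depended on 1 array, since without replicate 1 of 21W28D alone the list's median was 0.01. The B cell score was 0.04, 1.17 and 1.00 in 21W28D, against 0.34, 1.39, 1.27 and 1.49 in S28D, so that replicate 1 was the lowest within each group. The epithelial score was highest in the same arrays, at 0.31, -0.33 and -0.54 in 21W28D, against 0.08, -0.62, -0.79 and -0.22 in S28D. The part of this mix of cells in the differences was not tested. With both arrays numbered 1 left out, 5 of 22 interferon-induced genes had the lower mean at an unadjusted limma p under 0.05 (median -0.62), and 3 of 14 T cell genes (median 0.90) and 0 of 7 cytotoxic genes (median 0.55) the higher mean. All 8 B cell genes had a negative difference in that fit (median -0.18), with 0 at that p. Among all named genes that fit had 1.55% higher and 0.621% lower at that p.

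**Figure D4:**
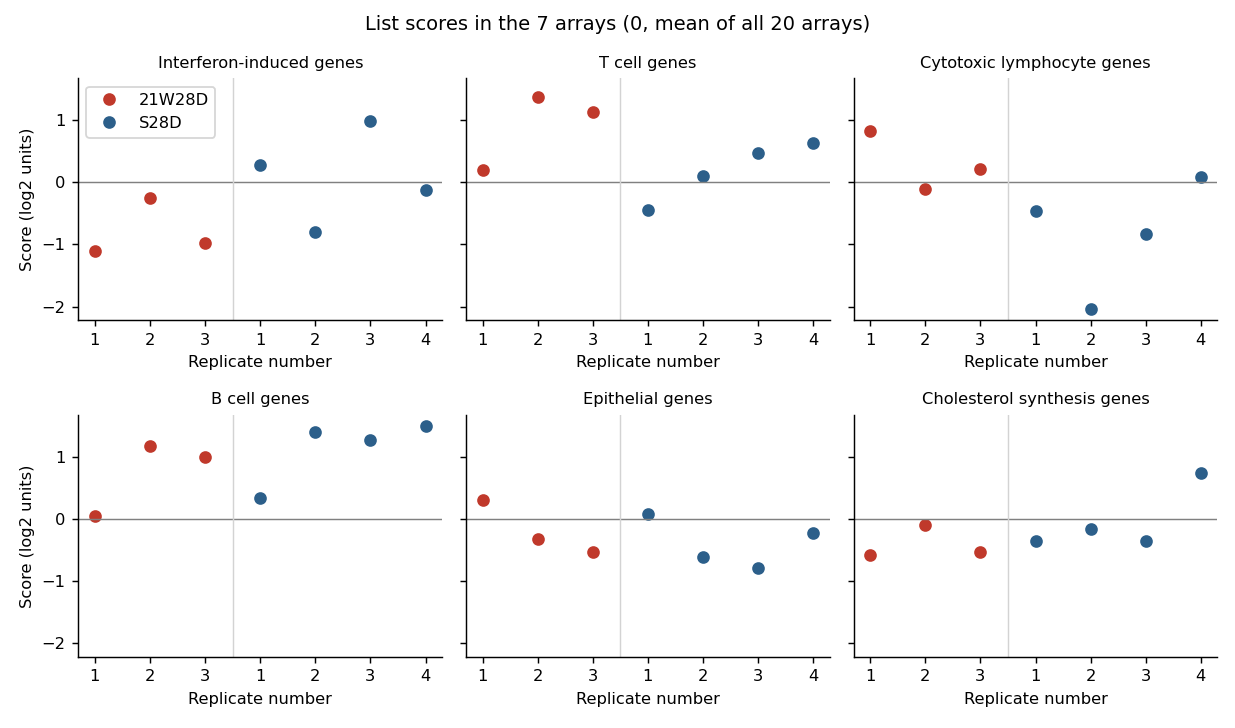
Score of 6 gene lists (mean log2 level of the members after centring each on all 20 arrays) in each array of 21W28D (left) and S28D (right), by replicate number. Replicate 1 has the lowest B cell score and the highest epithelial score in either group, and the interferon scores of the groups overlap.

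MHC class II genes had means close to each other (9 measured, median -0.05, range -0.21 to 0.16). The transactivator of these genes, CIITA, averaged 5.96 ± 0.48 in 21W28D and 6.18 ± 0.77 in S28D, and SLA-DQB1 12.28 ± 0.64 in 21W28D and 12.41 ± 0.26 in S28D. The 95% intervals of their differences were -1.52 to 1.10 and -0.98 to 0.71. Of 12 MHC class I and peptide loading genes, 10 had a positive difference (median 0.20, and 0.095 without replicate 2 of S28D). SLA-8 read 10.87, 10.49 and 10.59 in 21W28D, against 10.46, 9.82, 10.15 and 10.45 in S28D, without overlap (difference 0.43, 0.10 to 0.77). SLA-2, a classical class I chain, had a difference of 0.29 (0.01 to 0.57). The unadjusted limma p of both was under 0.05, beside 1.12% of all named genes with a higher mean at that p, and the adjusted p was 1. The class I chains are near-identical in sequence, so that probe sets may read more than 1 of them.

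Among mucosal defence genes, PIGR, the transport receptor for secreted IgA, had the largest difference at the lowest p. It read 11.74, 11.33 and 9.82 in 21W28D, against 9.51, 8.99, 9.53 and 9.98 in S28D. Replicate 3 of 21W28D lay within the S28D range, and the difference was 1.46 (95% interval 0.50 to 2.42, limma adjusted p = 1). JCHAIN, the joining chain of secreted IgA and a plasma cell gene, averaged 14.19 ± 0.55 in 21W28D and 14.54 ± 0.22 in S28D. CCL28, a chemokine for IgA-secreting cells, ran from 4.07 to 7.37 in 21W28D and from 3.06 to 7.02 in S28D. DMBT1, SLPI and LBP, a scavenger protein, a protease inhibitor and a binder of bacterial lipopolysaccharide, had differences of -1.31 (-3.06 to 0.45), 0.75 (-1.37 to 2.87) and -1.02 (-2.98 to 0.94). Without replicate 3 of S28D, DMBT1 had -0.73, and LBP had -0.26 without replicate 2 of 21W28D. Of 15 measured defence genes only PIGR had an unadjusted limma p under 0.05, beside 1.12% of all named genes with a higher mean at that p.

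Of 23 measured cytokine genes 1 had a lower mean at an unadjusted limma p under 0.05, beside 0.769% of all named genes. Only 10 of the 23 reached 4 log2 units in any of the 7 arrays. CXCL2, a chemokine for neutrophils, read 4.04, 6.02 and 6.15 in 21W28D, against 6.13, 7.62, 7.40 and 7.63 in S28D, a difference of -1.79 (95% interval -3.34 to -0.23, limma adjusted p = 1), and of -1.11 without replicate 1 of 21W28D. IL1B, the inflammatory interleukin, averaged 5.44 ± 0.60 in 21W28D and 6.12 ± 0.68 in S28D. The neutrophil genes S100A8, S100A9 and S100A12 were at the floor (2.1) in both groups. The 18 myeloid genes, of which 10 reached 4 log2 units, had a median difference of -0.01.

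No epithelial gene passed the test. Of 12 epithelial genes 11 had a positive difference (median 0.23, and -0.01 without replicate 1 of 21W28D), led by the keratins KRT19 (0.40, 95% interval -0.21 to 1.02) and KRT8 (0.39, -0.19 to 0.97) and by VIL1 of the microvilli (0.35, -0.28 to 0.98). Without that array these 3 had 0.11, 0.12 and 0.00. None had an unadjusted limma p under 0.05. The sugar transporters SLC2A2 and SLC2A5 had differences of 0.95 (-1.51 to 3.42) and 0.94 (-0.73 to 2.61). These values moved with single arrays: SLC2A2 had 0.10 without replicate 1 and 2.06 without replicate 2 of 21W28D, and SLC2A5 had 0.30 without replicate 3 of S28D. The 7 measured brush border hydrolases had a median of 0.04, and 19 transporters one of 0.00.

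APOC3 and APOA4, genes of fat absorption, spread widely among S28D piglets. APOC3, a protein of lipoproteins, read 12.33, 12.15 and 10.44 in 21W28D, against 7.69, 7.83, 8.55 and 14.04 in S28D. APOA4, made by enterocytes during fat uptake, read 9.09, 5.90 and 8.86 in 21W28D, against 5.20, 5.40, 5.51 and 9.26 in S28D. In both, replicate 4 of S28D stood far above the other S28D arrays. The differences were 2.11 (95% interval -1.49 to 5.72) and 1.60 (-1.55 to 4.76), and FABP1, the fatty acid-binding protein, had 1.12 (-0.63 to 2.88). Without replicate 4 of S28D, APOC3 had 3.61, and FABP1 had 0.43 without replicate 1 of S28D. Without replicate 1 of 21W28D, APOA4 had 1.03. Of 16 measured genes of this list 13 had a positive difference, with a median of 0.26 and 0 at an unadjusted limma p under 0.05. The median was 0.07 without replicate 1 of 21W28D and 0.50 without replicate 4 of S28D.

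Cholesterol synthesis genes had lower means in 21W28D in all 12 measured members (range -0.68 to -0.12, median -0.40), with 0 at an unadjusted limma p under 0.05. HMGCS1, an early enzyme of the pathway, read 10.97, 11.70 and 11.33 in 21W28D, against 11.57, 11.58, 11.67 and 12.28 in S28D. SQLE and MSMO1, later enzymes, had differences of -0.48 (95% interval -1.39 to 0.43) and -0.56 (-1.51 to 0.39). The S28D array with the high value of HMGCS1 was again replicate 4, and without it the list's median was -0.22 and MSMO1 had -0.31. Without replicate 1 of 21W28D, HMGCS1 had -0.26 and SQLE -0.20.

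Of 33 detoxification genes 1 had a higher and 1 a lower mean at an unadjusted limma p under 0.05 (median 0.00), beside 1.12% and 0.769% of all named genes. GSTA1, a glutathione transferase, read 11.03, 8.33 and 9.63 in 21W28D, against 11.55, 9.65, 11.39 and 13.42 in S28D, a difference of -1.84 (95% interval -3.43 to -0.26, limma adjusted p = 1), and of -1.17 without replicate 2 of 21W28D. NQO1, a quinone reductase, read 8.90, 8.43 and 7.24 in 21W28D, against 7.30, 7.41, 6.08 and 7.13 in S28D, a difference of 1.21 (0.24 to 2.18). Both pairs of groups overlapped. The epoxide hydrolases EPHX1 and EPHX2 had 1.17 (-0.38 to 2.71) and 0.97 (-0.29 to 2.22), EPHX1 1.85 without replicate 4 of S28D. Of 14 chloride secretion genes, KCNE3, a potassium channel subunit of crypt cells, had 0.79 (0.12 to 1.46) and the water channel AQP3 0.75 (-0.35 to 1.85). Without replicate 1 of 21W28D they had 0.42 and 0.37.

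In the remaining lists no gene had an adjusted p under 0.05, and members at the floor fix several medians of 0.00. Oxidative phosphorylation genes had a median of 0.09 (50 measured, 46 positive), cell cycle genes -0.17 (24 measured, 20 negative, and a median of 0.09 without replicate 1 of 21W28D) and immediate early and heat shock genes -0.16 (19 measured). Of these 19, IER3, HSP90AA1, HSPD1 and HSPE1 (-0.33, -0.21, -0.23 and -0.22), an immediate early gene and chaperones named after their values were seen, had all 21W28D arrays below all S28D arrays. These 4 stand beside 0.604% of all probe sets. Glucocorticoid response genes had -0.12, plasma cell genes -0.15, and lysosome and endocytosis genes of the suckling enterocyte 0.02. The markers of smooth muscle, fibroblasts, endothelium and nerves had medians of 0.11, -0.04, 0.00 and 0.00, with 5 of 13 endothelial and 1 of 7 nerve genes at 4 log2 units or more. Crypt stem cell genes had 0.17, bile acid genes 0.13, tight junction genes 0.07, fatty acid oxidation genes 0.06, goblet and Paneth cell genes 0.04, enteroendocrine genes 0.01, and complement, growth factor and erythrocyte genes 0.00, with 4 of 20 growth factor and 1 of 5 erythrocyte genes at 4 log2 units or more. Apoptosis genes and reference genes had -0.01 each, and the 2 measured mast cell genes 0.42. In these lists 0 to 1 genes had an unadjusted limma p under 0.05, beside 1.12% higher and 0.769% lower among all named genes.

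Among probe sets without a gene symbol, the one with the largest positive difference read 8.44, 8.69 and 8.996 in 21W28D, against 4.28, 3.87, 5.48 and 4.05 in S28D. The difference of 4.29 (95% interval 2.62 to 5.96, limma adjusted p = 0.214) exceeded that of every named gene in the plot of largest differences. This probe set read 3.61 in replicate 1 labelled S35D and 7.93 to 8.82 in the other 2 of that label and in 21W35D. The next such probe set averaged 7.27 ± 1.75 in 21W28D and 3.15 ± 1.08 in S28D, a difference of 4.11 (2.58 to 5.65, limma adjusted p = 0.187).

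Whether the difference between weaned and suckling piglets at 28 days differed from that at 35 days was tested as an interaction, (21W28D minus S28D) minus (21W35D minus the arrays labelled S35D). limma found 0 of 23999 probe sets at an adjusted p under 0.05 and 2-fold (0%), with a lowest adjusted p of 0.0619 and 610 at an unadjusted p under 0.05. The genes named here were picked among those whose 21W28D and S28D arrays also did not overlap, so that not all are among the largest interactions. GCG (1.56) and CCR9 (-1.21), also at an unadjusted limma p under 0.05, were passed over by this rule. SNRPA1 had a difference of 2.15 at 28 days and of -0.42 at 35 days (interaction 2.57 ± 0.55 SE, limma adjusted p = 0.509). USP36, a ubiquitin protease, had -0.22 at 28 days and 0.55 at 35 days (interaction -0.76 ± 0.16 SE, limma adjusted p = 0.509). APH1A of the gamma-secretase complex and ATP5L of ATP synthase had interactions of 0.83 and 0.80, and TSC22D3, which glucocorticoids induce, of -1.01, each with an adjusted p of 1. The 2 groups whose labels are in doubt enter this test with the same sign, so that an exchange leaves every interaction unchanged. The separate differences at 28 and at 35 days would change.

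If the labels are exchanged, the comparison of weaned with suckling piglets at 28 days is that of the arrays labelled S35D with S28D. It uses the same 4 S28D arrays, so that the values stand side by side and are no independent evidence. limma found 471 probe sets higher (1.96%) and 169 lower (0.704%) in the arrays labelled S35D at an adjusted p under 0.05 and 2-fold. Without the fold minimum there were 848 higher (3.53%) and 722 lower (3.01%). Over the brighter probe sets the SD of the differences was 0.75, and 0.29 for 21W28D minus S28D.

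In the arrays labelled S35D the list of interferon-induced genes had a median difference from S28D of 1.49, and all named genes had 0.00. Of its 22 genes 14 were higher at an adjusted p under 0.05, beside 6.18% of all named genes. These calls moved with single arrays, with 0 of 22 without replicate 1 labelled S35D (median 1.31). There were 4 without replicate 3 of that label or without replicate 2 or 4 of S28D. There were 14 without replicate 2 labelled S35D or replicate 1 of S28D, and 16 without replicate 3 of S28D. With 1 array left out the list median ran from 1.28 to 1.85. Of all named genes 0.473% were higher without replicate 1 labelled S35D. ISG15 read 14.89, 13.82 and 14.23 in the arrays labelled S35D, all above the 4 S28D arrays, a difference of 2.21 (limma adjusted p = 0.0363). RSAD2 had 2.68 (limma adjusted p = 0.0136), USP18 1.46 (limma adjusted p = 0.0329), and IFIT2 2.40 (limma adjusted p = 0.0311). The median of B cell genes was -2.43, of MHC class II genes -1.32 and of T cell genes 0.00. Replicate 1 labelled S35D stood apart, with B cell scores of -2.53, -0.40 and -0.38 and MHC class II scores of -1.34, -0.62 and -0.43 in the 3 arrays. Without it the medians of B cell and MHC class II genes were -1.51 and -1.05. The part of this array's mix of cells in the differences was not tested. Of 8 B cell genes 1 was lower at an adjusted p under 0.05, FAM129C (-2.46, limma adjusted p = 0.0272). Of 9 MHC class II genes it was also 1, SLA-DQB1 (-1.44, limma adjusted p = 0.0437), beside 2.87% of all named genes. Without replicate 1 labelled S35D there were 0 in either list. CXCL13 read 10.08, 12.53 and 12.38 in the arrays labelled S35D, below the 4 S28D arrays, with a difference of -2.25 (limma adjusted p = 0.548).

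At an adjusted p under 0.05, the arrays labelled S35D had higher means than S28D for 3 of 12 epithelial genes (list median 0.83) and for 4 of 15 defence genes, beside the 6.18%, and 0 of each without replicate 1 of that label. Without replicate 1 of S28D there were 9 epithelial and 4 defence genes, beside 7.95% of all named genes. The epithelial score was 0.68, 0.31 and 0.40 in these 3 arrays, against 0.08, -0.62, -0.79 and -0.22 in S28D. DMBT1, SLPI and GSTA1 were higher in the arrays labelled S35D by 3.90, 4.29 and 3.14 (limma adjusted p = 0.0182, 0.0259 and 0.0270), and PIGR by 1.83 (limma adjusted p = 0.0311). GZMH and PRKCH were higher by 2.43 and 0.85 (limma adjusted p = 0.0290 and 0.0165), beside 1.31 and 0.97 in 21W28D. The cholesterol synthesis list had a median of 1.00, with 1 of 12 genes higher at an adjusted p under 0.05, beside the same 6.18%. Without replicate 1 labelled S35D none of the 12 genes given here and above with an adjusted p under 0.05 kept it (lowest 0.0794), and 1 of them did without replicate 3 of that label or without replicate 2 of S28D.

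**Figure D5:**
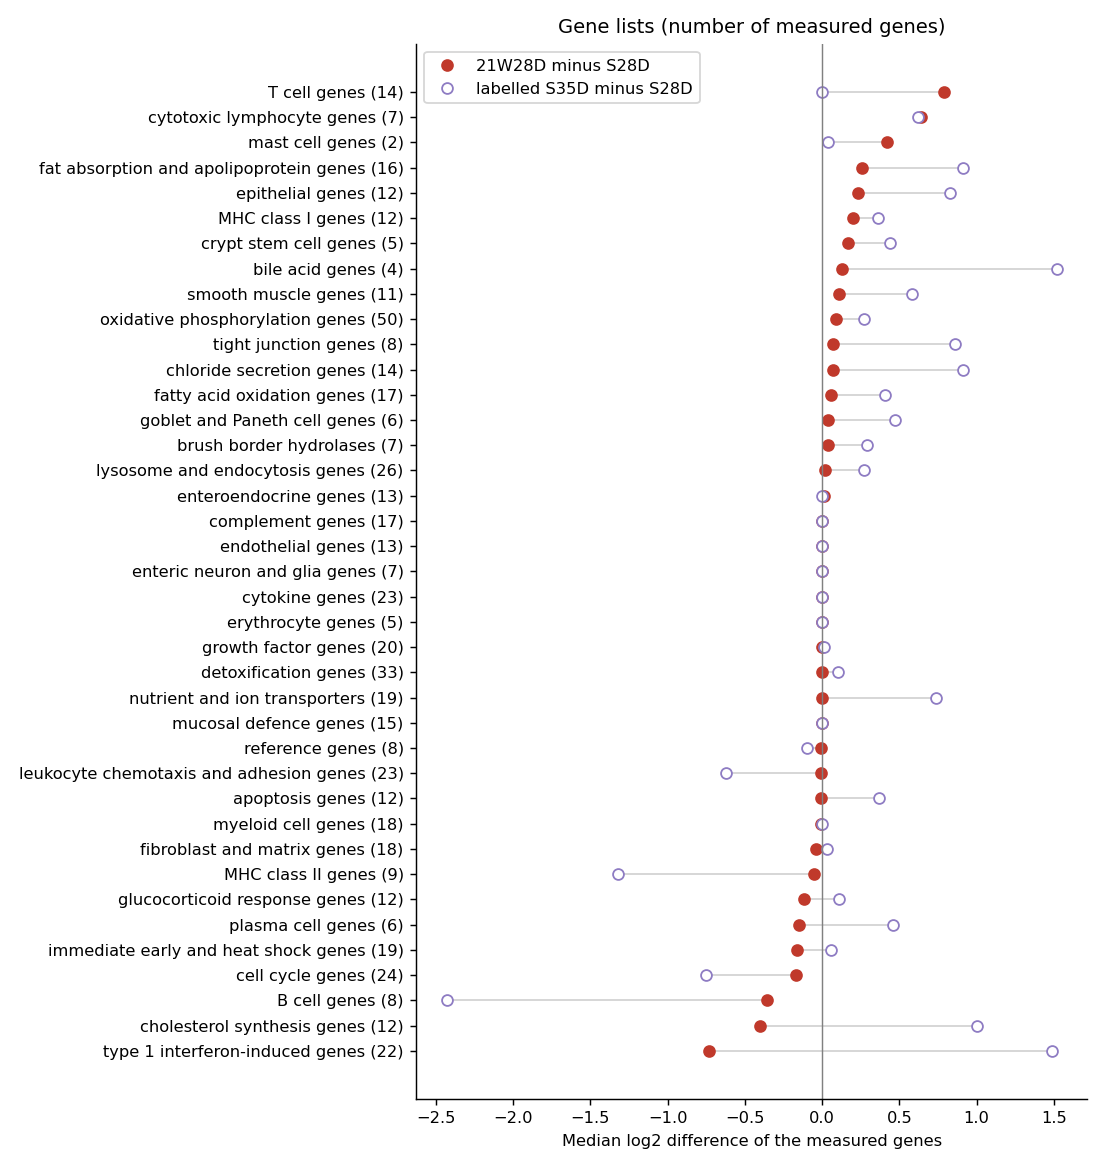
Median log2 difference of the measured genes of 39 lists (their number in brackets), for 21W28D minus S28D (filled circles) and for the arrays labelled S35D minus S28D (open circles), which share the S28D arrays. The list of interferon-induced genes lies at -0.73 and 1.49, and that of B cell genes at -0.36 and -2.43.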

How the data were processed

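RNA from ileal mucosa was hybridised to Affymetrix GeneChip Porcine Genome Arrays. The deposited values are log2 units, which the authors made with gcRMA (a background model based on the GC content of the probes, then quantile normalization, then 1 value per probe set). GCOS 1.2 and GCRMA are the tools in the submitters' processing notes. Raw intensities were not used here. For arrays, the number of arrays limits the precision.

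Affymetrix controls were left out. Of 10069 probe sets with 1 symbol in the platform annotation, 9961 matched the RefSeq genes of Sscrofa11.1, 198 had several symbols and 13732 none. The brightest probe set stood for a gene. No probe set was named IFI6, which the study measured by PCR.

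limma 3.58.1 (lmFit, eBayes) in R 4.3.3 was fitted to all 20 arrays with 6 group means. Benjamini-Hochberg adjustment covered 23999 probe sets. A probe set was called at an adjusted p under 0.05 and at least 2-fold. The fit was tested on simulated data. p-values measure the spread between piglets, some of them littermates, and which arrays share a litter is unknown.

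The 39 gene lists were written from textbook knowledge and are described by counts and medians. The members and lists were chosen with earlier results of these data known. Named were the genes of the study's PCR, the 12 largest differences in each direction (1 symbol, unadjusted p under 0.05, no overlap, at least 4 log2 units in the higher group), up to 4 members of a list with the largest differences, and the largest interactions. EPCAM, FABP6, ACTA2 and genes at the floor were added as tissue checks, and JCHAIN for its place beside PIGR.

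Alternatives were a dim filter (4 log2 units or more in 3 arrays or more), no fold minimum, the brightest or every probe set of each gene, a fit of the compared groups alone, robust variance with an intensity trend, renewed quantile normalization, median centring, the replicate number as a block, the methods' t-test, each array left out and exchanged labels. Leaving out both 28-day arrays with the number 1 was added after seeing the data. Columns of no sample numbered 0.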

Additional observations from a re-analysis of the deposited data

Results flagged for a closer look

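Among 78 named genes and 39 list scores, 10 had 1 array of S28D far from the other 3, by Dixon's test of the gap to the nearest array over the range. Chance marks about 1 in 20. Replicate 4 stood above the other S28D arrays in APOC3 (14.04 against 7.69 to 8.55), APOA4 (9.26 against 5.20 to 5.51), HMGCS1 (12.28 against 11.57 to 11.67), EPHX1 (5.98 against 3.11 to 3.56) and CD3E (7.65 against 6.44 to 6.56), and in the score of fat absorption and apolipoprotein genes (0.23 against -1.06 to -0.98). Replicate 1 was below the others in CXCL2 (6.13 against 7.40 to 7.63) and in the score of reference genes (0.05 against 0.11 to 0.12). Replicate 3 was below the others in the score of nutrient and ion transporters (-1.22 against -0.35 to -0.21). Replicate 2 was above the others in TMED5 by a small amount (6.56 against 6.54).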

How the results depend on the processing

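The count of 0 probe sets between 21W28D and S28D was also 0 with the dim filter, the brightest probe set of each gene, only these groups in the fit, the intensity trend, both scalings, no fold minimum and both arrays numbered 1 left out. Leaving out 1 array gave 0 to 3, with 1 without replicate 1 and 3 without replicate 3 of 21W28D. The methods' t-test without adjustment gave 36, and exchanged labels 640. The interaction gave 2 with the dim filter, 1 with median centring and 0 to 4 with 1 array left out. The 640 probe sets of the arrays labelled S35D against S28D became 1084 with the dim filter, 337 with 1 probe set per gene, 15 with only these groups in the fit, 1570 without the fold minimum, 1530 by the methods' t-test without adjustment and 1 after adjustment. With 1 array left out they ran from 54 (without replicate 1 labelled S35D) to 960 (without replicate 1 of S28D), with 144 without replicate 2, 287 without replicate 3 and 312 without replicate 4 of S28D, and 173 without replicate 3 labelled S35D. The cause of these shifts was not tested.

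Same-numbered arrays of 21W28D and S28D had deviations with r of 0.625, -0.188 and 0.227 across 12267 probe sets, so that the numbers were not taken as pairs. With the number as a replicate block there were 0 probe sets between 21W28D and S28D, 0 for the interaction and 231 for the arrays labelled S35D, and ACTB had a difference of 0.00.

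With 1 array left out the sign turned for CXCL13 (-1.0 to 0.022), VAV1 (-0.303 to 0.183), VCAM1 (-0.563 to 0.060), FCGR2B (-1.071 to 0.181), CIITA (-0.592 to 0.064), SLA-DQB1 (-0.380 to 0.226), SLPI (-0.028 to 1.503), SLA-DOA (-0.785 to 0.688) and ACTB (-0.080 to 0.054). The array was replicate 1 of 21W28D for the first 7 of these, replicate 2 of 21W28D or replicate 1 or 3 of S28D for SLA-DOA, and replicate 2 of 21W28D or replicate 3 of S28D for ACTB. With both arrays numbered 1 left out, SLA-DQB1 (0.13) and FABP1 (-0.045) turned. With exchanged labels the differences were 2.21 for ISG15, 2.40 for IFIT2, 1.46 for USP18, 2.68 for RSAD2, 2.07 for MX2, 1.21 for MX1, 3.90 for DMBT1, 0.99 for LBP, 1.201 for MSMO1, 1.07 for SQLE, 0.96 for HMGCS1, 3.14 for GSTA1, 0.14 for SRP14 and 0.10 for TMED5. They were -1.42 for SLA-DOA, -0.14 for PPP4R1L, -0.23 for LOC100621559, -0.71 for ACTR6, -0.66 for CCR9, -0.64 for SH2D1A, -0.40 for LAT and -0.23 for EPHX2. Dim signal limits the rest: 41.6% of values lay within 1 unit of the floor.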
